A study of Mus musculus with 91 samples.

Results

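The 45 cell cycle genes described here were chosen by name and are taken with the signal of the DNA dye in the same cells. The table of 16580 genes holds 42 of them. These are 15 of 18 mitosis genes (Bub1, Aurkb and Plk1 were not analysed here), 12 replication genes and 3 D cyclins. The others are 5 genes for cyclin E and CDKs (Ccne1, Ccne2, Cdk2, Cdk4 and Cdk6), 5 inhibitors, and Bora and Prr11. The last 2 genes had been picked earlier for their gap between gates in these same cells, so their gate values are a description only.

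The cell cycle is driven by cyclins, which bind and switch on cyclin-dependent kinases (CDKs), and is held back by CDK inhibitors and by the retinoblastoma protein. D cyclins with CDK4 or CDK6 act early in the G1 phase, cyclin E with CDK2 at entry into DNA synthesis (S phase), and cyclins A and B with CDK1 in the later phases up to mitosis. Genes for the replication machinery and for mitosis are transcribed in waves of their own, so that the messages of a single cell carry a trace of its phase, and a dye that binds DNA gives an independent reading of DNA content. Most stromal cells of adult bone marrow are regarded as slowly dividing.

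The cells were 91 single marrow cells of C57BL/6 mice, freshly taken from crushed bones. Each was sorted into a well of its own and made into a Smart-seq2 library, a full-length method. All gates took cells positive for a dye, whose channel the sort record names cell cycle and which the labels call vibrant dye, and for the adhesion molecule VCAM1, which marrow stroma carries. Cells with CD45, Ter119, CD41 or CD71 (leukocyte, erythroid and megakaryocyte antigens) were gated out, and CD51 and CD200 were stained as well. The VCAM1+CD61+ gate gave 39 cells and the VCAM1+CD61- gate 40, named CD61+ and CD61- in what follows after the integrin beta 3 chain. A VCAM1+ gate without a split on CD61 gave 9. Title and gate contradict each other for 3 more cells, which were set in no gate. Of the CD61+ cells 17 and 22 shared a plate, of the CD61- cells 24 and 16. No plate mixed these 2 gates, so the effects of plate and gate cannot be told apart. No label gives an animal or an age, and each gate is therefore 1 sample. No test between gates was run, and intervals cover counting error only.

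The depth of a cell was between 507713 and 6702475 counts, with gate medians of 1887610 (CD61+), 2368340 (CD61-) and 4004930 (VCAM1+). Many stromal markers were found in most cells. Cxcl12, the chemokine that names the CXCL12-abundant reticular (CAR) cells of the marrow, had a count in 83 of 91 cells, and the bone matrix gene Sparc in 90. The 18 CAR markers were counted in 53 (Angpt1) to 86 (Igfbp4) cells each. The 14 osteolineage markers ran from 16 cells (Dmp1) to 90 (Sparc), with Bglap in 23 and Sp7 in 35. By contrast, 15 cells (10 CD61+, 3 CD61- and 2 VCAM1+) had at least 3 leukocyte, erythroid, megakaryocyte or endothelial markers at 10 or more counts each. The 12 leukocyte markers in the table had a count in as few as 1 cell (Tyrobp) and as many as 56 (Lcp1), with Rac2 in 29, Fcer1g in 19 and Ptprc, which codes for CD45, in 13. Summed leukocyte markers reached 659 CPM (a gene's counts scaled to a fixed total per cell or gate) in CD61+ cells and 235 CPM in CD61- cells, and ranged from 0 to 4012 CPM over CD61+ cells and from 0 to 6153 CPM over CD61- cells.

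Mitosis and replication genes are known to be read from promoters with short shared motifs. The 200 bases before the annotated start are shown for 3 mitosis genes (Birc5, Top2a and Ccnb2) and 2 replication genes (Rrm1 and Tyms). Both groups of genes are followed cell by cell below. Sequences are from RefSeq on GRCm38.p6, 5′ to 3′ on the gene's own strand. Capitals mark the word CCAAT, the word TTTGAA (the core of the cell cycle homology region) and the E2F-type words TTCCCGC or TTGGCGC, each on both strands.
Birc5: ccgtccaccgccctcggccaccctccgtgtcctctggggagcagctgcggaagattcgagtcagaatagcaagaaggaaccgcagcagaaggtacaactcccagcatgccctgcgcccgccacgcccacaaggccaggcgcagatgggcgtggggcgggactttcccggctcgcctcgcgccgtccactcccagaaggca
Top2a: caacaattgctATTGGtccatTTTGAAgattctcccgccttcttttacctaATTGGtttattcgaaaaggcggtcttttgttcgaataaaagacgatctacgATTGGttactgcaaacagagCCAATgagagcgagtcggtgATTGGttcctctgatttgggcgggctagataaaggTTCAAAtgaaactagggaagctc
Ccnb2: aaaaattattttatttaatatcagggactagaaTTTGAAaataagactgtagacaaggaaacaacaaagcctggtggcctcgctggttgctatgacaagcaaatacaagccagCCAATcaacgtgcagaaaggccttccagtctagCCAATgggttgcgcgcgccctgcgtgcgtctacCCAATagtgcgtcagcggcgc
Rrm1: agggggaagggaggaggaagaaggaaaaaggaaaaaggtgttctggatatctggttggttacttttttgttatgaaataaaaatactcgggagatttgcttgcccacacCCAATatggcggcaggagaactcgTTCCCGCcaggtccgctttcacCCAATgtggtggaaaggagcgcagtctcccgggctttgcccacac
Tyms: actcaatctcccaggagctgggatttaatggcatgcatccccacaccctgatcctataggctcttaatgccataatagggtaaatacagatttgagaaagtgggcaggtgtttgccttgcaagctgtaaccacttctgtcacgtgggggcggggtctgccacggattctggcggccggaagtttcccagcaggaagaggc
These windows are chr11:117849037-117849236 (plus strand) for Birc5, chr11:99024190-99024389 (minus) for Top2a, chr9:70421555-70421754 (minus) for Ccnb2, chr7:102441495-102441694 (plus) for Rrm1 and chr5:30073626-30073825 (minus) for Tyms. Top2a held 5 CCAAT and 2 TTTGAA words, Ccnb2 3 and 1, and Rrm1 2 CCAAT words and 1 E2F-type word, while the windows of Birc5 and Tyms held none of these letters. Of the mitosis members in the table, 12 genes had a promoter entry. CCAAT stood in 91.7% of these windows, TTTGAA in 58.3% and an E2F-type word in 25%. For replication genes (10 genes, 11 windows) the shares were 81.8%, 9.09% and 54.5%. Over all 32851 promoters of the same length they were 29.3%, 12.5% and 4.82%. Such matches describe letters in a window only.

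Most of these cells had few mitosis genes, at low levels. Of the 15 mitosis members, a cell had a count in a median of 3 in the CD61+ gate, 2 in the CD61- gate and 2 in the VCAM1+ gate. No mitosis gene was seen in 9 of the 91 cells, 1 to 4 genes in 75 cells, 5 or 6 genes in 5 cells, 9 genes in 1 cell and 14 genes in 1 cell. The counts behind these numbers were small. At a level of 10 CPM or more, 25 of 39 CD61+ cells, 29 of 40 CD61- cells and 7 of 9 VCAM1+ cells had no mitosis gene at all. A count in at least 9 of the 18 listed genes was found in 1 of 39 CD61+ cells (2.56%, Clopper-Pearson 95% interval 0.0649% to 13.5%) and in 0 of 40 CD61- cells. A count of 0 of 40 allows a share of up to 7.5% by a limit of 3 counts, and of up to 8.81% by the Clopper-Pearson interval. In the VCAM1+ gate it was 1 of 9 cells (11.1%, 0.281% to 48.2%). The numbers of cells were the same after each cell was thinned to 500000 counts. Only 1 cell lay within 2 genes of the threshold, and it was the CD61+ cell counted here, with exactly 9 genes.

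**Figure D1:**
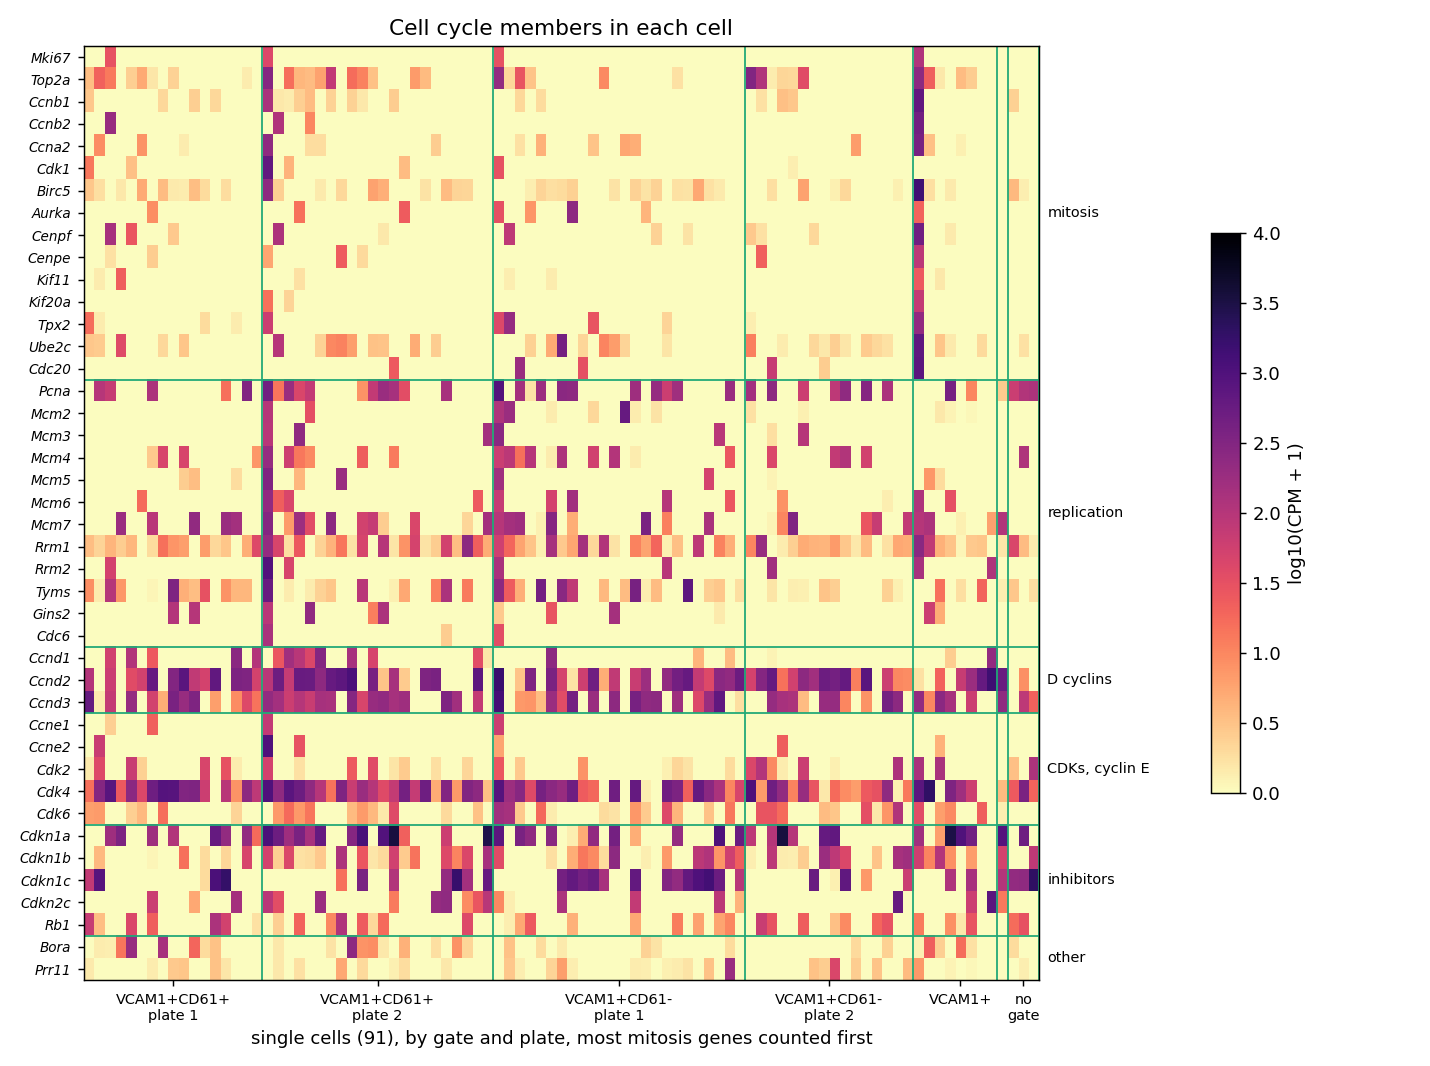
Level of each of the 42 members (rows, grouped by role) in each of 91 cells (columns, by gate and plate), as log10(CPM + 1). The mitosis rows are pale except in single columns, of which VCAM1+ cell 1 and VCAM1+CD61+ cell 13 stand out, while Ccnd2, Ccnd3 and Cdk4 are dark across gates.

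The mitosis genes seen in most cells showed how thin this background was. Birc5, which codes for survivin of the chromosomal passenger complex, had a count in 44 cells. In those cells its median was 0.916 CPM, and it reached 10 CPM in 2 cells. Over CD61+ cells Birc5 ran from 0 to 237 CPM with a median of 0.405, over CD61- cells from 0 to 4.91 CPM with a median of 0, and over VCAM1+ cells up to 1384 CPM with a median of 0. Top2a, the topoisomerase that untangles sister chromatids, had a count in 36 cells (19 CD61+, 12 CD61- and 5 VCAM1+), and its highest values were 289 CPM in CD61+ cells, 324 CPM in CD61- cells and 248 CPM in VCAM1+ cells. It was the mitosis gene with the most cells at 10 CPM or more, 13 of 91. Ube2c, the ubiquitin-conjugating enzyme of the anaphase-promoting complex, was also counted in 36 cells, with 5 cells at 10 CPM or more and a highest value of 703 CPM. Ccnb1, which codes for cyclin B1, was counted in 20 cells, of which 13 were CD61+ and 5 CD61-, and reached 10 CPM in 2 cells. Mki67, the source of the Ki-67 proliferation antigen, was counted in 4 cells, with highest values of 40.4 CPM in CD61+ cells, 29.8 CPM in CD61- cells and 111 CPM in VCAM1+ cells. For 12 of the 15 mitosis genes, at least 50% of the CPM summed over 91 cells came from 1 cell. Among the replication genes this held for 3 of 12, and among the D cyclins and inhibitors for none.

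The cell with most mitosis genes was VCAM1+ cell 1, with 14 of 15 counted (all but Cdk1) and 5636 CPM in sum. Its largest values were Birc5 at 1384 CPM, Cdc20, the activator of the anaphase-promoting complex, at 761, Ube2c at 703 and Ccnb1 at 665. Cenpf, a kinetochore protein gene, stood at 476 CPM, Ccnb2, for cyclin B2, at 469 and Ccna2, for cyclin A2, at 397 CPM. Of the wider mitosis list outside the members 25 of 28 were counted, among them the chromatin protein gene Hmgb2 at 2545 CPM, the centromere histone Cenpa at 2428 and the CDK subunit Cks2 at 1445. Replication genes were low beside them, with 4 of 12 counted (Rrm1 at 266, Rrm2 at 136, Mcm6 at 115 and Mcm7 at 99.6 CPM) and no count of Pcna. The markers of this cell went against a stromal label. Only 1 of 18 CAR markers had a count (0.255 CPM in sum), osteolineage markers summed to 0.511 CPM, and leukocyte markers to 6358 CPM with Cd79a, a B cell receptor subunit, at 3255 CPM and Ptprc at 13.5 CPM.

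VCAM1+CD61+ cell 13 had the second highest number of mitosis genes, 9 of 15 (1667 CPM), and all 12 replication genes (3650 CPM). Cdk1, the kinase of cyclins A and B, led the mitosis genes at 664 CPM, followed by Top2a at 289, Birc5 at 237 and Ccna2 at 228 CPM, and Mki67 stood at 40.4 CPM. Ccnb2, Cdc20, Ube2c, Cenpf, Aurka and Kif11 had no count there. Rrm2, the regulatory subunit of ribonucleotide reductase, stood at 949 CPM, thymidylate synthase Tyms at 570, the sliding clamp Pcna at 456 and the helicase subunit Mcm5 at 335 CPM. The cyclin gene Ccne2 stood at 1030 CPM and Cdk4 at 1007 CPM. In the wider replication list 22 of 24 genes were counted, with the histone mRNA binder Slbp at 1101 CPM and thymidine kinase Tk1 at 756 CPM. The inhibitor Cdkn1a (p21) was also read in this cell, at 1142 CPM. It kept the stromal markers, with 18 of 18 CAR markers counted (39753 CPM in sum), Cxcl12 at 15345 CPM and Adipoq, for adiponectin, at 1640 CPM, against 56.5 CPM of leukocyte markers.

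VCAM1+CD61- cell 4 also had all 12 replication genes (2153 CPM), beside 5 mitosis genes (343 CPM). Its Pcna reached 902 CPM, the highest of any CD61- cell, and the helicase subunit Mcm3 reached 269 CPM. Its Ccnd2, at 1632 CPM, and its Ccnd3, at 1260 CPM, were each the highest of all 91 cells, and Cdk6 stood at 159 CPM. Its leukocyte markers summed to 6153 CPM (7 of 12), with Tyrobp at 2284, Laptm5 at 1256 and Ptprc at 647 CPM, and its CAR markers to 1473 CPM (16 of 18). Apart from these 2 cells with 12 replication genes, no cell had more than 7.

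**Figure D2:**
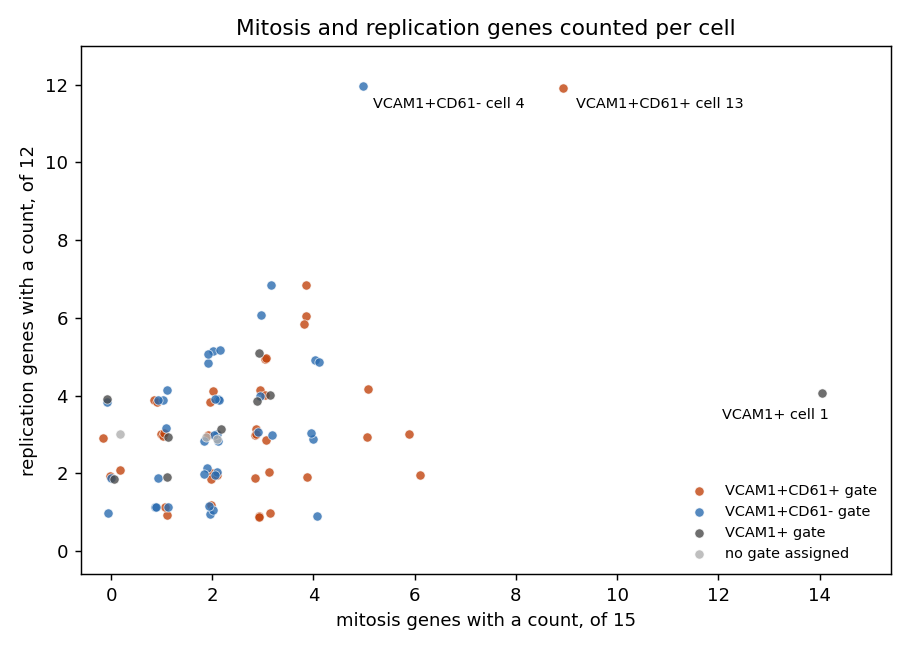
Number of mitosis genes (of 15, horizontal) and replication genes (of 12, vertical) with a count in each of 91 cells, coloured by gate and shifted slightly to show overlapping points. VCAM1+CD61+ cell 13 and VCAM1+CD61- cell 4 lie at the top with 12 replication genes, and VCAM1+ cell 1 at the right with 14 mitosis genes and 4 replication genes.

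The other cells among the 6 with most mitosis genes were CD61+ cells 37, 38 and 36. Cells 37 and 38 had 6 mitosis genes each but only 36.9 and 31.3 CPM in sum, and after thinning to 500000 counts 5 and 3 of the genes were left. CD61+ cell 36 had 5 genes and 377 CPM, mostly Ccnb2 at 194 CPM and Cenpf at 140 CPM, with osteolineage markers at 58922 CPM and CAR markers at 180 CPM. CD61+ cell 11, chosen after its values were seen, also had 5 mitosis genes (333 CPM), with osteolineage markers at 244317 CPM. It was among the cells with blood or endothelial markers, with 3 erythroid markers at 291 CPM and 1 leukocyte marker at 1597 CPM. The order by number of genes counted so mixed cells of very different summed level. In all, 11 of 91 cells had 100 CPM or more of mitosis genes in sum. Those with fewer than 5 genes, also chosen after their values were seen, were CD61- cells 5, 32, 14, 13, 8 and 38. Of these cells only CD61- cell 38 was among those with blood or endothelial markers, with 12 of 12 endothelial markers at 11640 CPM. In each of these CD61- cells 1 gene gave most of the mitosis sum. Ube2c stood at 436 CPM of 437 in cell 5, Top2a at 324 of 337 in cell 32, Tpx2, a spindle assembly factor gene, at 202 of 286 in cell 14, and Aurka, for the mitotic kinase Aurora A, at 239 of 241 in cell 13. Over the 91 cells the number of mitosis genes counted ran with the number of all genes counted (Spearman rho 0.41) and less with depth (rho 0.09). The 5 genes outside the members whose level ran most closely with the number of mitosis genes were Rai1, Ubxn2a, Cfap53, Ireb2 and Hcfc1 (rho 0.48, 0.46, 0.45, 0.44 and 0.43 over 91 cells, counted in 30, 60, 22, 46 and 37 cells). None of these is on the lists of mitosis genes used here.

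Replication genes were counted in a median of 14 cells a gene and mitosis genes in 8, and a count in some replication genes was common in every gate. The median cell had 3 of 12 in the CD61+ gate, 3 in the CD61- gate and 4 in the VCAM1+ gate. Rrm1, the catalytic subunit of ribonucleotide reductase, was counted in 79 cells, at a median of 3.21 CPM in CD61+ cells and 3.24 CPM in CD61- cells, with highest values of 253 and 197 CPM. The gates overlapped throughout, and Rrm1 summed to 18.2 CPM in CD61+ cells and 18 CPM in CD61- cells (log2 ratio 0.01). Tyms was counted in 51 cells and summed to 37.6 CPM in CD61+ cells and 51.3 CPM in CD61- cells. The CD61+ plates, at 37.1 and 38.1 CPM, lay between the CD61- plates, at 89 and 0.486 CPM. Pcna was counted in 40 cells, of which 36 had 10 CPM or more, so that few cells had a low level of it. Pcna summed to 62.6 CPM in CD61+ cells and 101 CPM in CD61- cells (log2 ratio -0.70), and its CD61+ plates (52.1 and 73.4 CPM) lay below the CD61- plates (107 and 93.5 CPM). Mcm7, a subunit of the replicative helicase, was counted in 36 cells and summed to 51.5 and 45.6 CPM in the same gates (log2 ratio 0.18), with overlapping plates. The number of replication genes counted also moved with depth (rho 0.44) and with the number of all genes counted (rho 0.60), whose part in it was not tested.

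D cyclins differed in how widely they were read. Ccnd2, for cyclin D2, was counted in 72 of 91 cells and Ccnd3, for cyclin D3, in 64, but Ccnd1, for cyclin D1, in 20. Per kilobase of exon over the 88 cells with a gate, their levels were 26.5 CPM per kb for Ccnd2, 14.6 for Ccnd3 and 4.07 for Ccnd1. Ccnd1 differed between the gates. It was counted in 14 of 39 CD61+ cells and 4 of 40 CD61- cells, and at 10 CPM or more in 13 and 1. Its median was 0 in both gates, and its highest values were 296 CPM in a CD61+ cell and 254 CPM in a CD61- cell. Summed over cells Ccnd1 reached 39.2 CPM in CD61+ cells and 6.87 CPM in CD61- cells, a log2 ratio of 2.51 (95% interval 2.39 to 2.64), and 7.37 CPM in VCAM1+ cells. The CD61+ plates (33.2 and 45.5 CPM) both lay above the CD61- plates (12 and 0.0256 CPM, the last from 1 count), and without any 1 cell the ratio stayed between 2.20 and 7.46. Osteolineage markers moved with it. They summed to 96595 CPM in CD61+ cells and 26150 CPM in CD61- cells, and over 91 cells Ccnd1 ran with their sum (rho 0.42) and against the CAR marker sum (rho -0.48). Their part in the Ccnd1 difference was not tested.

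Ccnd2 and Ccnd3 differed little by gate. Ccnd2 summed to 268 CPM in CD61+ cells and 235 CPM in CD61- cells (log2 ratio 0.19), with cells from 0 to 1138 CPM and from 0 to 1632 CPM and medians of 95.2 and 76.2 CPM. Ccnd3 summed to 117 CPM in CD61+ cells and 147 CPM in CD61- cells (log2 ratio -0.33). Its median over cells was higher in the CD61+ gate, 66 against 21.9 CPM, so the direction depends on whether cells are summed or ranked. All 3 D cyclins had a count in 13 CD61+ cells and 3 CD61- cells, and none had a count in 4 and 3. Across 91 cells the D cyclin sum showed almost no relation to the number of mitosis genes (rho 0.06). The plates gave values from -0.10 to 0.39, and the 9 VCAM1+ cells -0.71.

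Cdk4, the main partner of D cyclins, was counted in 84 cells, more than any other member. It summed to 312 CPM in CD61+ cells and 232 CPM in CD61- cells (log2 ratio 0.43), and the medians over cells were 228 and 41.2 CPM. The plates overlapped, at 364 and 258 CPM in CD61+ cells and at 266 and 186 CPM in CD61- cells. Cdk6, its relative, went the other way. It was counted in 17 CD61+ cells and 22 CD61- cells, at up to 38 CPM and 159 CPM, and summed to 3.96 CPM and 17.1 CPM (log2 ratio -2.11, interval -2.29 to -1.93). Its CD61+ plates (1.56 and 6.45 CPM) lay below its CD61- plates (17.2 and 16.9 CPM), and without any 1 cell the ratio stayed between -2.78 and -1.75. Cdk2 summed to 6.87 CPM in CD61+ cells and 10.5 CPM in CD61- cells, with the CD61+ plates at 8.58 and 5.10 CPM between the CD61- plates at 1.33 and 23 CPM. The cyclin E genes were rare, with Ccne1 counted in 4 cells and Ccne2 in 6. Ccne2 summed to 25.8 CPM in CD61+ cells and 0.708 CPM in CD61- cells, and 89.2% of its per-cell CPM came from CD61+ cell 13. Cdk4 ran with the number of mitosis genes (rho 0.42, 10th highest of 12415 genes counted in at least 10 cells), and also with the number of all genes counted (rho 0.49).

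The 5 inhibitors, with Rb1 counted among them, summed to 636 CPM in CD61+ cells and 490 CPM in CD61- cells (915 CPM in the VCAM1+ gate), where the mitosis genes summed to 84.1 and 59.6 CPM (638 CPM). The medians over CD61+ and CD61- cells were 210 and 353 CPM for inhibitors against 9.48 and 4.14 CPM for mitosis genes. Over VCAM1+ cells the medians were 681 CPM for inhibitors and 1.64 CPM for mitosis genes. The mitosis sum of that gate came mostly from VCAM1+ cell 1, at 5636 CPM. Such sums over unequal gene lengths are not a comparison per transcript. Per kilobase of exon Cdkn1a had the highest level of all 42 members, 110 CPM per kb, followed by Cdk4 at 81.2 and Cdkn1c at 80.1, while Mki67 stood at 0.347. No inhibitor had CD61+ plates wholly above or below the CD61- plates.

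Cdkn1a, the p53-induced inhibitor p21, was counted in 46 cells, 21 CD61+, 18 CD61- and 6 VCAM1+, and in 42 of the 46 at 10 CPM or more. Over CD61+ cells it ran from 0 to 3493 CPM with a median of 20.5, and over CD61- cells from 0 to 3422 CPM with a median of 0. It summed to 403 CPM and 229 CPM (log2 ratio 0.82). The CD61+ plates, at 115 and 702 CPM, lay on either side of the CD61- plates, at 150 and 335 CPM, so the plates of a gate differed more than the gates did. Cdkn1c (p57), an imprinted inhibitor, was counted in 12 CD61+ and 18 CD61- cells. It summed to 177 and 192 CPM (log2 ratio -0.12), with highest values of 1824 and 1324 CPM. Cdkn1b (p27) summed to 13.9 CPM in CD61+ cells and 32.5 CPM in CD61- cells (log2 ratio -1.23, without any 1 cell -1.56 to -1.02), with plates at 4 and 24.1 CPM against 21.8 and 46.8 CPM in CD61- cells, which overlap. Cdkn2c (p18) summed to 29.9 and 29.4 CPM and was counted in 12 and 7 cells. Rb1, the retinoblastoma gene, summed to 11.2 and 7.02 CPM in the same gates (log2 ratio 0.68). Cdkn1a and Cdkn1c were counted together in 18 cells, Cdkn1a alone in 28, Cdkn1c alone in 18 and neither in 27, and their levels were unrelated (rho 0.01).

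The inhibitor sum showed little relation to the number of mitosis genes over 91 cells (rho -0.12, plates from -0.35 to 0.26). Within it the members differed. Cdkn1c had a rho of -0.38, the lowest of all 12415 genes counted in at least 10 cells, whose 5th to 95th percentile ran from -0.11 to 0.26. Cdkn1a had a rho of 0.21. For Cdkn1c the plates gave -0.02 and -0.54 in CD61+ cells and -0.52 and -0.29 in CD61- cells, and rho was -0.17 when a mitosis gene was counted only from 10 CPM. The values of Cdkn1c were singled out after they were seen, its 91 points share chemistry and plates, and its rho with the number of all genes counted was -0.09.

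**Figure D3:**
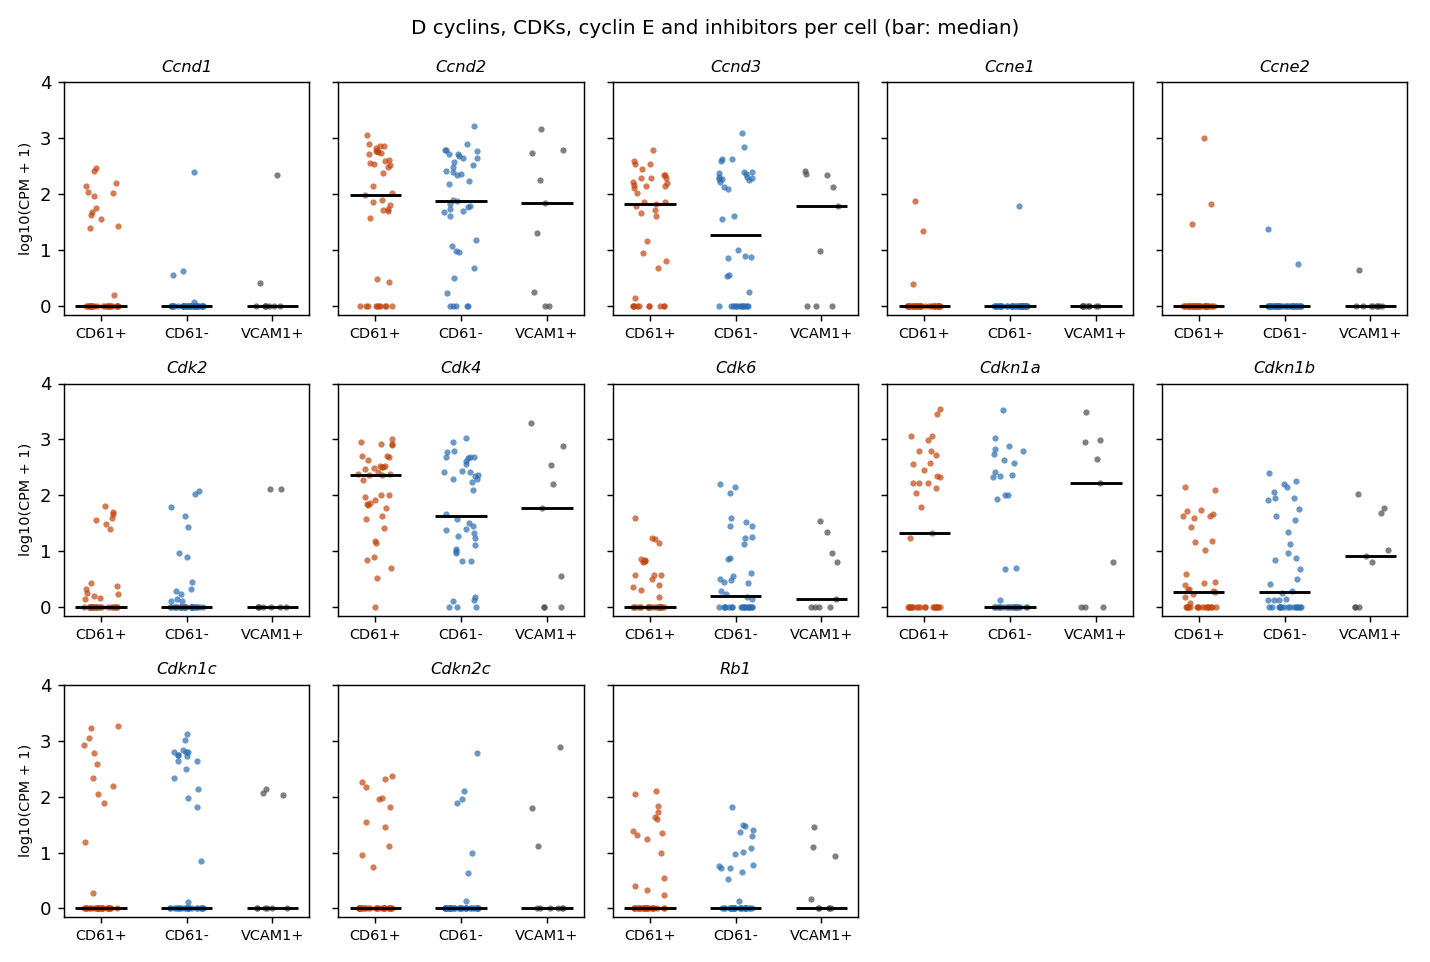
Level of D cyclins, cyclin E genes, CDKs and inhibitors in each cell as log10(CPM + 1), by gate, with a bar at the median. Ccnd1 points above 0 are mostly CD61+ (14 of 39 against 4 of 40 CD61- cells), Cdk4 is read in nearly every cell, and Cdkn1a and Cdkn1c split cells of every gate into a high and an empty set.

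Of 42 members 37 reached 10 counts in sum over the 4 plates with a count in 5 cells, and Mki67, Ccnb2, Kif20a, Cdc6 and Ccne1 did not. Of the 37, 35 remained without Bora and Prr11. Of these 35, 10 (28.6%) were at least 2-fold higher in CD61+ cells, where 19.4% of the 14063 genes tested were, and 8 (22.9%) at least 2-fold lower, where 17.3% were. With both CD61+ plates above both CD61- plates there were 5 (14.3%, against 20% of all genes), and with both below also 5 (14.3%, against 17.8%). Without any 1 cell, Ccnb1, Gins2, Ccnd1 and Ccne2 stayed at least 2-fold higher, and Cdc20, Mcm2, Cdk6 and Cdkn1b at least 2-fold lower. Ccnb1 (lowest log2 ratio 1.03) and Cdkn1b (highest -1.02) stayed so only narrowly, with overlapping plates. Cdc20 had a count in only 1 CD61+ cell. Kif11 is not among them, since 1 cell gave 95.2% of its 42 CD61+ counts. Without that cell both gates fell under the floor of 3 counts, so no ratio was formed. The share of all genes that stayed past 2-fold without any 1 cell was not taken, so these genes are a description only. Of the 12 mitosis genes tested, 6 were at least 2-fold higher and 4 lower, and their median log2 ratio was 1.64, against 0.01 over all genes tested. That median ran from -0.09 to 2.72 without 1 cell, and was -0.05 without CD61+ plate 2 and 0.34 with DESeq2 size factors. The summed mitosis list was 84.1 CPM in CD61+ cells and 59.6 CPM in CD61- cells, a log2 ratio of 0.50 that ran from -0.24 to 1.37 between plate pairs. CD61+ cell 13 alone held 44.8% of the CD61+ counts, and without it the ratio was -0.33. Replication genes had 2 higher and 2 lower of 11 tested (median -0.12), and their sum was 259 CPM in CD61+ cells and 301 CPM in CD61- cells (log2 ratio -0.22, plate pairs -1.14 to 0.91). The inhibitor sum had a log2 ratio of 0.37 (plate pairs -0.41 to 0.93) and the D cyclin sum of 0.13 (-0.08 to 0.31). The direction of these 4 sums changed between plate pairs. The sum of CDK and cyclin E genes had a log2 ratio of 0.43 (0.16 to 0.74), but Cdk4 gave 312 of its 352 CPM in CD61+ cells and 232 of 262 CPM in CD61- cells, and the median over its tested genes was -0.10.

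Bora, a cofactor that lets Aurora A activate PLK1, summed to 12.6 CPM in CD61+ cells and 0.261 CPM in CD61- cells, with counts in 18 and 8 cells and 10 CPM or more in 5 and 0. Prr11, which is linked to proliferation in human cells, summed to 0.352 CPM in CD61+ cells and 8.36 CPM in CD61- cells, with counts in 13 and 18 cells and highest values of 4.35 and 185 CPM. Neither ran with the number of mitosis genes (rho 0.11 and -0.01). Bora was counted together with Aurka in 3 cells, without it in 29, and Aurka without Bora in 5.

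**Figure D4:**
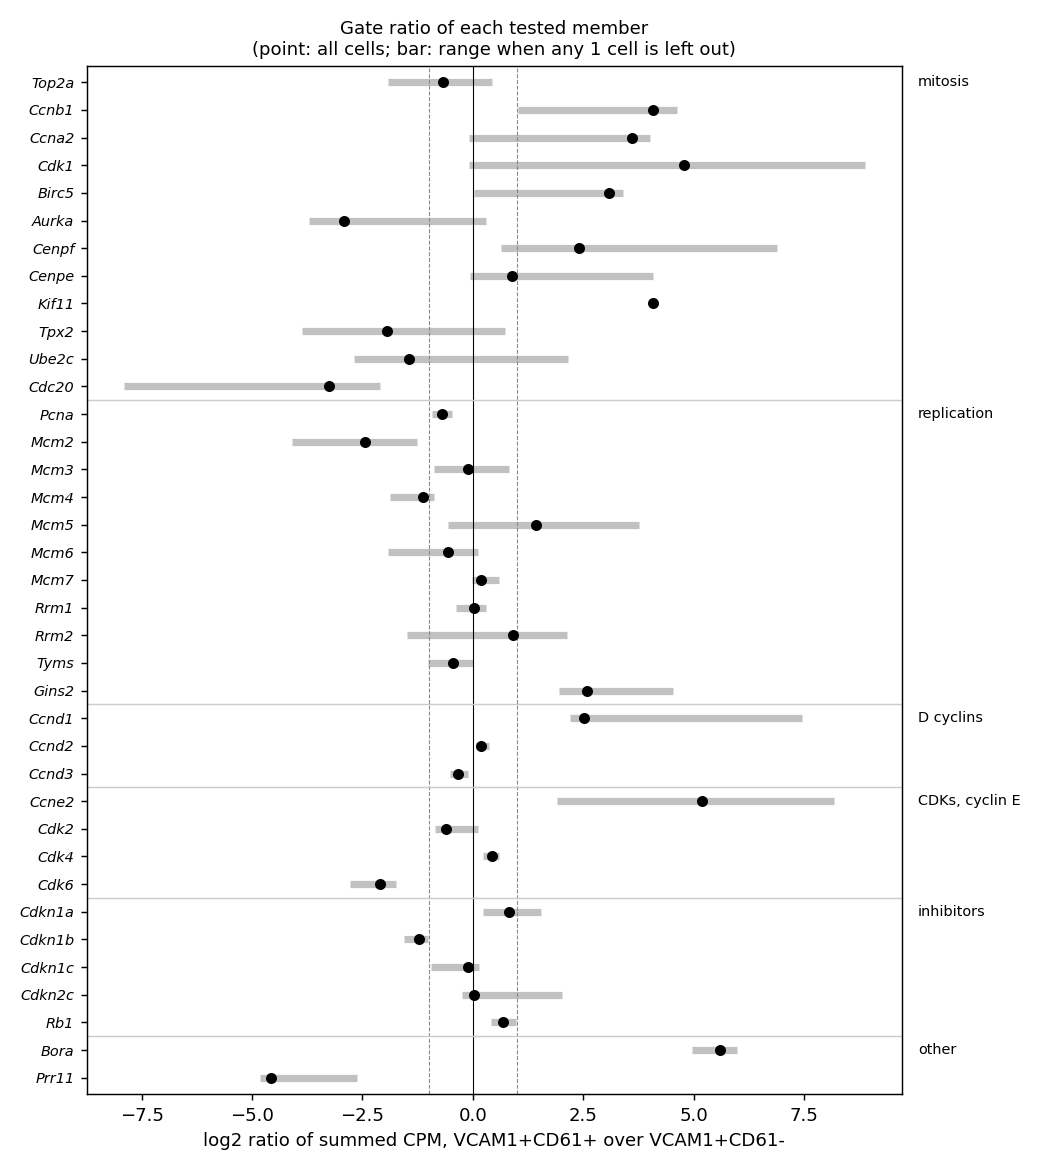
Log2 ratio of summed CPM, CD61+ over CD61-, for each of the 37 members tested (point) and its range when any 1 cell is left out (grey bar), with dashed lines at 2-fold. Many mitosis and replication bars cross 0, whereas Ccnd1 stays between 2.20 and 7.46 and Cdk6 between -2.78 and -1.75. The Kif11 bar leaves out the case without its top CD61+ cell, where no ratio was formed.

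Among other regulators, the immediate early genes, which respond to growth factors and to cell handling, were lower in CD61+ cells, with 9 of 17 at least 2-fold lower and 1 higher, where 17.3% and 19.4% of all genes tested were (7637 CPM in sum in CD61+ cells and 16064 CPM in CD61- cells). Fos summed to 3087 CPM in CD61+ cells and 6930 CPM in CD61- cells, Junb to 815 and 1780 CPM, and both had CD61+ plates below CD61- plates. The same shares of all genes are the background of the 2-fold counts that follow. Of 14 p53 targets 1 was at least 2-fold higher and 3 lower, and the most abundant was Gadd45g (1018 CPM in CD61+ cells and 1587 CPM in CD61- cells, overlapping plates). Of 15 E2F, RB and DREAM genes 2 were higher and 4 lower, among them Lin37 (32.8 and 76.8 CPM), a DREAM subunit. The wider mitosis list had 8 of 23 higher and 5 lower, with a median log2 ratio of 0.83. In 11 of the 23 both CD61+ plates lay above both CD61- plates and in 0 below, where 20% and 17.8% of all genes did. Its sum was 317 CPM in CD61+ cells and 305 CPM in CD61- cells (log2 ratio 0.05). The wider replication list had 3 of 21 higher and 2 lower, with Slbp at 121 and 177 CPM in these gates. Of 6 other inhibitors of growth none was past 2-fold either way, and Gas6, a secreted growth arrest-specific factor, stood at 917 CPM in CD61+ cells and 1554 CPM in CD61- cells.

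The dye was also part of the sort gate, so its values describe cells that passed. The median dye area was 65578 intensity units in CD61+ cells (48184 to 129855), 63805 in CD61- cells (42051 to 77681) and 63818 in VCAM1+ cells (43757 to 73381). The difference of 1774 units between CD61+ and CD61- cells is small beside that between plates. The CD61+ plates had medians of 63510 and 66213, and the CD61- plates of 50549 and 70991, so the CD61- plates lay on either side of both CD61+ plates, and the SD over the 4 plate pairs was 11905. What sets the plates apart was not tested.

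Dye area held almost no relation to the mitosis genes of the same cell. Over 91 cells the rho between dye area and the number of mitosis genes was 0.03, and within plates it was 0.12 and 0.04 in CD61+ cells and -0.17 and 0.02 in CD61- cells. None of the 3 cells described above for their mitosis or replication genes was among the 3 cells with highest dye. VCAM1+ cell 1 had a dye area of 51628, 0.823 times the median of its plate, VCAM1+CD61+ cell 13 had 62605 (0.946 times) and VCAM1+CD61- cell 4 had 68769 (1.36 times). With the number of replication genes rho was 0.12, and within plates it was 0.55 and 0.28 in CD61+ cells and 0.03 and 0.59 in CD61- cells. Depth moved with both measures (rho with dye from 0.24 to 0.46 in these plates, with replication genes from 0.32 to 0.87). After every cell was thinned to the same 500000 counts, the replication values were 0.68, 0.17, -0.05 and 0.46 in the same order of plates. The rho of single genes with dye had a median of -0.01 over the 7 mitosis genes and 0.03 over the 9 replication genes counted in at least 10 cells, against 0.04 over all 12415 such genes (5th to 95th percentile -0.13 to 0.21). The mitosis genes ran from -0.18 to 0.21 and the replication genes from -0.10 to 0.15.

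Dye area was also set beside light scatter, which reflects cell size and, in its width, the passage of more than 1 cell. The rho with forward scatter area was 0.44 over 91 cells, with 0.34 and 0.05 in the CD61+ plates, 0.66 and 0.56 in the CD61- plates and -0.18 in the 9 VCAM1+ cells. With forward scatter width it was 0.26, but the plates disagreed, with 0.72 and 0.61 in CD61+ cells and -0.50 and 0.41 in CD61- cells. The number of mitosis genes had a rho of 0.05 with forward scatter width over 91 cells, with 0.24 and 0.01 in the CD61+ plates, 0.07 and -0.40 in the CD61- plates and -0.64 in the 9 VCAM1+ cells.

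In dye area 3 cells stood apart, singled out here after their values were seen. They were CD61+ cells 4, 19 and 22, all from the plate of 22 cells, with dye areas of 129855, 124627 and 122545, or 1.96, 1.88 and 1.85 times the plate median. The next highest cell, CD61+ cell 34, had 97602. These 3 cells had 2, 3 and 3 mitosis genes counted, where the median of CD61+ cells was 3, and no count of Mki67 or Cdk1. Their mitosis genes summed to 25.9, 6.24 and 11.5 CPM, where the median of 91 cells was 4.29 CPM (ranks 22, 38 and 31). They had 4, 4 and 5 replication genes, at 153, 411 and 220 CPM, where the median of 91 cells was 162 CPM. Each had all 18 CAR markers (60197, 67905 and 67965 CPM), and leukocyte markers stood at 1280, 1.56 and 1.57 CPM. Cdkn1a stood at 3493, 960 and 1167 CPM in them, ranks 1, 9 and 5 of 91 cells. The summed p53 target list of the same cells ranked 51, 41 and 38, but its members differed. Phlda3 ranked 4, 12 and 10, Bax 15, 18 and 11, Ccng1 14, 1 and 19 and Sesn2 9, 15 and 6. Mdm2 ranked 27, 2 and 28 and Btg2 25, 20 and 50. Other members of the list were not ranked. Their forward scatter widths of 91360, 88743 and 91269 ranked 13, 19 and 14 from the top, and their 7641, 6654 and 7308 genes counted ranked 3, 15 and 6. The part of cell size, of the number of genes counted and of more than 1 cell per well in these values was not tested.

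**Figure D5:**
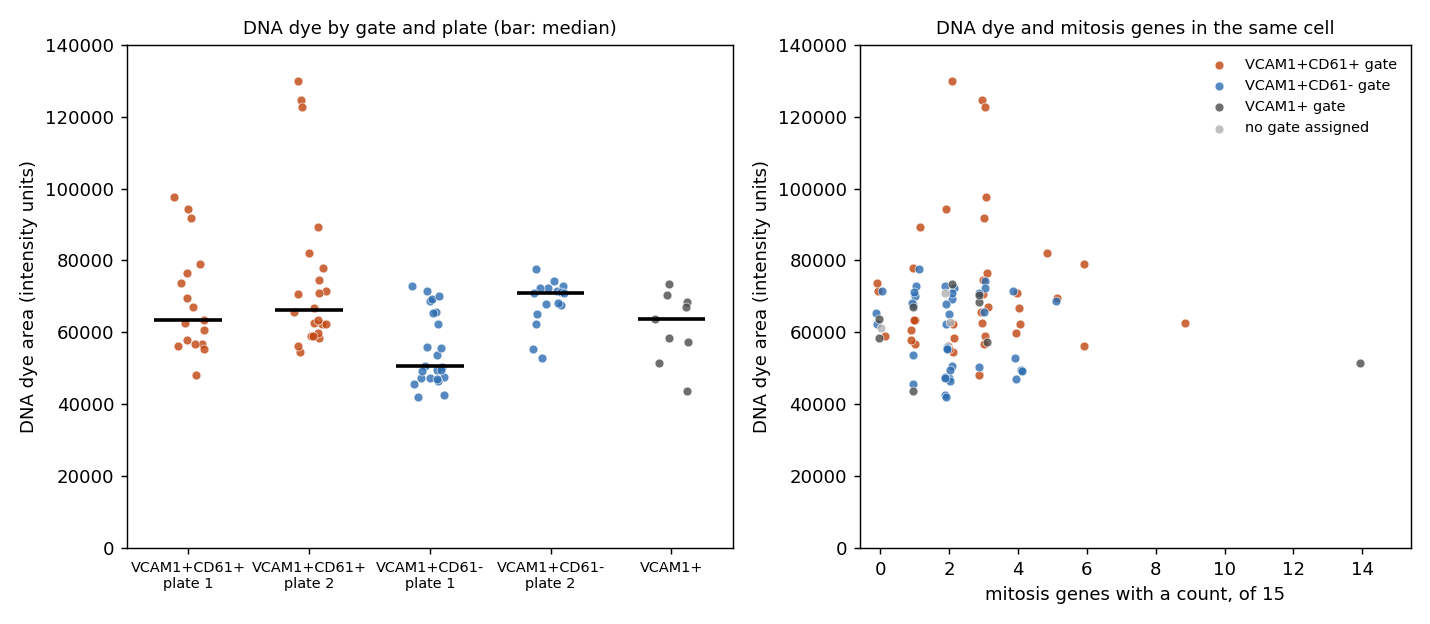
DNA dye area in intensity units for each cell by gate and plate (left, bar at the median) and against the number of mitosis genes with a count (right). The 3 highest cells are CD61+ with 2 or 3 mitosis genes, and the cells with 9 and 14 mitosis genes lie at 62605 and 51628 units.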

How the data were processed

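Index-sorted single cells were made into Smart-seq2 libraries with a homemade Tn5, per the labels' protocols. The submitters' processing notes name kallisto 0.43.0, R 3.5.1 and mm10; no annotation is named in the sources used here. The authors deposited expected counts per gene, all of them whole numbers, for 16580 genes in 91 cells, and index-sort values as intensity. Of the deposited per-cell columns, 41 were not used.

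Members and lists were chosen with earlier results of these data known. Counts were summed over the cells of a gate or plate and given as CPM, with sums under 3 counts set to that floor for log2 ratios. Named were the 4 mitosis and 4 replication members counted in most cells, every D cyclin, CDK, cyclin E gene and inhibitor, Bora, Prr11, up to 3 most abundant genes of each further list, the 5 genes closest to the number of mitosis genes, and the 6 cells with most of them. Ratios carry exact binomial and shares Clopper-Pearson intervals at 95%, for counting error only, since reads are not independent molecules. Correlations over cells carry no test. Exon lengths came from GENCODE vM21. No cell was removed, no doublet caller was run, and 0 pairs of cells had identical counts. Alternatives used TMM (edgeR 4.0.16), DESeq2 1.42.0 size factors, mean CPM, thinned counts, other minimums, and the data without a plate, a cell, or cells with blood or endothelial markers. The ratio step was tested on simulated data for genes with many counts only, which leaves out low-count members such as Kif11 and Ccnb1. Tools were R 4.3.3, Python 3.11.15 and, within it, pandas 2.3.3 and numpy 2.4.6, with scipy 1.17.1 for intervals and matplotlib 3.10.9 for plots.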

Additional observations from a re-analysis of the deposited data

Results flagged for a closer look

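In the VCAM1+ gate, the smallest gate (9 cells, 10 measures looked at by Dixon's criterion), the highest cell stood apart from the others by more than 0.493 of the range for 4 measures. Chance alone gives about 1 in 20 groups for normally distributed replicates. These cells are of mixed markers, their values are skewed, and 2 of the 4 measures are the same signal of the same cell, so that rate is nominal and the distances are a description only. VCAM1+ cell 1 had 14 mitosis genes counted, where the next cell had 3, and 5636 CPM of mitosis genes, where the next had 24.4 CPM. Its leukocyte markers summed to 6358 CPM. VCAM1+ cell 6 had 1657 CPM of D cyclins, where the next had 782 CPM. Most of it was Ccnd2 at 1441 CPM, and this cell had 1416 genes counted, the fewest of all 91 cells, no mitosis gene, and fibroblast markers at 19376 CPM. VCAM1+ cell 4 had 3182 CPM of inhibitors, where the next had 1054 CPM, nearly all from Cdkn1a at 3051 CPM. It had 4 of 18 CAR markers counted, at 5.55 CPM in sum, and 10 of 12 endothelial markers, at 2701 CPM.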

How the results depend on the processing

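Of 247 alternative values of the main results, 216 stayed within a set limit and 31 moved past it, and the cause was not tested. The limit was the spread over plates for ratios, dye and correlations, the counting interval for shares, and a fixed fold for numbers of members. A value within it could still change sign. With DESeq2 size factors the mitosis and inhibitor list ratios were both -0.13. For 23 named members, 12 had an alternative of the opposite sign. The mitosis list ratio ran from -0.33 to 0.74 without 1 cell and reached 1.01 without CD61- plate 1. The inhibitor list ran from -0.31 to 0.85 without 1 plate. The D cyclin list was -0.15 with DESeq2 size factors and 0.45 without cells with blood or endothelial markers (its median 0.53), and the CDK and cyclin E list 0.16 with DESeq2 size factors. Medians without 1 plate ran from -2.04 to 0.93 for replication genes, from -0.77 to 1.27 for inhibitors and from -0.50 to 1.30 for CDK and cyclin E genes. Counted over all 37 members tested, Bora and Prr11 among them, 11 (29.7%) were at least 2-fold higher and 9 (24.3%) lower. Of all genes tested 19.4% and 17.3% were. Without 1 plate the members higher ran from 7 to 18 and those lower from 7 to 15, and 5 were 4-fold lower with all plates. The shares of all genes at these other settings were not taken. Birc5 ran from -0.11 to 4.02 without 1 plate, the lowest without CD61+ plate 2, and Ube2c from -2.70 to 2.15 without 1 cell, also changing sign without CD61- plate 1 at 1.82. The CD61+ share of cells with 9 mitosis genes was 0% from 10 counts a gene, 0% at 12 genes, and 0% to 4.55% without 1 plate. At 5 genes it was 12.8%, against 2.5% in CD61- cells and 11.1% in VCAM1+ cells. The VCAM1+ share was 0% without cells with blood or endothelial markers and 0% to 12.5% without 1 plate. Within plates the rho of dye was -0.17 with mitosis genes (CD61- plate 1), 0.55 and 0.59 with replication genes (CD61+ plate 1, CD61- plate 2), -0.50 with forward scatter width (CD61- plate 1), 0.055 with forward scatter area (CD61+ plate 2), and 0.37, 0.46 and 0.46 with depth (both CD61+ plates, CD61- plate 2; Pearson r 0.060). The rho of mitosis genes was 0.39 with D cyclins (CD61+ plate 2) and 0.26 with inhibitors (CD61- plate 2). The dye difference ran from -5412.5 to 15029.5 units without 1 plate. Settings for the Cdkn1c correlation were chosen after seeing the data. No paired analysis was possible because cells of different gates share no animal label and each gate is 1 sample.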
